A study of Mus musculus with 38 samples.

Results

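CRISPR/Cas9 targeting of Trim28 in adult mouse neurons was read out in 5 RNA-seq libraries of sorted nuclei, which make up 5 of the 38 samples of the series. They were chosen by their labels as all libraries from Cas9-GFP knock-in animals: 4 received adeno-associated viral (AAV) vectors with guides to Trim28 and 1 received a guide to lacZ, a bacterial gene that mice lack. The Trim28-KO libraries are named after their guides, g3, g4, g13 and the combination g3g4g13, and the control library is named lacZ. Every library stands for 1 animal, so the control has no replicate and the 4 Trim28-KO libraries differ in guide as well as in animal.

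All 5 animals carried Cas9-GFP at Rosa26 and received intra-striatal injections. The striatum is a forebrain region made up largely of GABAergic projection neurons. Vectors of a single guide were diluted to 30%, and the 3 vectors of the combination to 10% each. Nuclei were isolated 2 months after injection, and those carrying H2B-RFP, a red nuclear reporter driven in these vectors by the neuronal synapsin promoter, were sorted by FACS. Cas9 was present in all cells of these animals, so the sort, and not Cas9, limited the libraries to neurons. The series description also mentions co-injected AAV vectors expressing Cre, which the methods describe only for the Stop-Cas9-GFP animals. The labels give neither the strain, the sex nor the age of the animals. Values from 8 cultures of neural progenitor cells (NPCs) transduced with the same guides, and from 5 Stop-Cas9-GFP animals, in which Cas9 needs Cre to be expressed, are given where they help to place a result.

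Trim28, also called Kap1, is an epigenetic corepressor. Zinc finger proteins with a KRAB domain (KRAB-ZFPs) bind transposable elements (TEs) by sequence and recruit Trim28, which brings in the histone methyltransferase Setdb1, heterochromatin protein 1 and deacetylases, and the site acquires H3K9me3. Endogenous retroviruses (ERVs), above all the ERVK families in mice, are the best known targets, together with imprinted regions and some genes that lie next to ERVs.

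The guides are shown because the position of each cut differs within Trim28. Capitals mark the NGG motif next to the 20-base protospacer:
g3: gcactccacacaatagctagTGG
g4: ggtccttgtgagcgttgagcTGG
g13: cgcactggttacacatgaccAGG
lacZ: tgcgaatacgcccacgcgatTGG

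Each Trim28 guide matched 1 place on the 19 autosomes without a mismatch, on the minus strand of Trim28 (ENSMUSG00000005566.14, a gene on the plus strand of chromosome 7) in GRCm38.p6, and in all 3 cases inside a coding exon. The g3 site at chr7:13025675-13025697 lies in exon 3 of 17, and the g4 site at chr7:13027726-13027748 lies in exon 4. The g13 site at chr7:13029921-13029943 lies in exon 13, far downstream. In the plus strand context of 30 bases on either side of the predicted cut, the target and its motif are in capitals:
g3 site: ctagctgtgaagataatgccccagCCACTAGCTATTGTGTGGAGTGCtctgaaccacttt
g4 site: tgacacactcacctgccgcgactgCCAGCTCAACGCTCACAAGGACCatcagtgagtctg
g13 site: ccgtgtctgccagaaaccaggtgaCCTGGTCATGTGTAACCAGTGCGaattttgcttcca

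The predicted g3 cut follows 493 of the 2502 coding bases, or 19.7%, and leaves 14 exon junctions behind it. The g4 cut follows 704 coding bases, or 28.1%, with 13 junctions behind it. The g13 cut follows 1913 coding bases, or 76.5%, with 4 junctions behind it, so up to 637 of 834 codons precede it. Allowing up to 3 mismatches, and an NGG motif, g3 had 10 further matches, all with 3 mismatches, g4 had 3, of which 1 had 2 mismatches, and g13 had 4 with 3 mismatches. The lacZ guide had no match. The only further match in an exon, of g4 with 3 mismatches at chr3:152290438-152290460, was in Miga1, a gene of mitochondrial fusion. Miga1 measured 217, 199, 215 and 217 CPM (counts scaled to a common total, the gene library size) in g3, g4, g13 and g3g4g13 and 183 CPM in lacZ. The g4 library was the lowest of the 4 Trim28-KO libraries and g3g4g13, which also received g4, was level with g3, while all 4 lay above lacZ.

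Depth was similar among the libraries, with 10430897 to 13067559 counts over genes and 955878 to 1414281 over TE subfamilies. The number of genes with a count was lowest in lacZ, at 18929, against 19717 to 21833 in the Trim28-KO libraries. Neuronal and striatal marker genes were present in every library: Ppp1r1b, which encodes the striatal phosphoprotein DARPP-32, measured 326 to 521 CPM, and the dopamine receptor genes Drd1 and Drd2 measured 355 to 467 and 359 to 569 CPM. The Trim28-KO libraries differed from each other by a median of 0.190 to 0.263 on the log2 scale per gene, over 11756 genes above a minimum mean count. From lacZ they differed by 0.207 to 0.255, so the 2 ranges overlapped. Of the pairs of Trim28-KO libraries, only g4 with g3g4g13, at 0.242, and g13 with g3g4g13, at 0.263, exceeded the smallest difference from lacZ. The g3 and g13 libraries held reads of the Y-linked gene Eif2s3y at 429 and 358 CPM and the other 3 held at most 0.0959 CPM, so the animals were not of 1 sex. Genes on chromosomes X and Y were left out of all tests below.

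The composition of the lacZ library stood apart. Transcripts of the mitochondrial genome took 2.73%, 2.15%, 1.43% and 1.74% of gene counts in g3, g4, g13 and g3g4g13 and 4.39% in lacZ (95% Wilson interval 4.38 to 4.40%, counting error only). The corresponding shares among the Stop-Cas9-GFP libraries were 3.22%, 1.25%, 1.69% and 1.59%, and 1.37% in their lacZ library. TE subfamilies took 9.55%, 10.4%, 10.1% and 9.42% of the counts that TEtranscripts gave to genes and TEs, and 8.09% in lacZ, against 10.1 to 12.6% in the Stop-Cas9-GFP libraries including their control at 10.6%. The 10 listed long non-coding RNAs of the nucleus, Malat1 and Meg3 among them, summed to 23770, 25323, 26418 and 25487 CPM and to 20849 CPM in lacZ. In these 3 measures lacZ was outside the range of the 4 Trim28-KO libraries. With 1 control, a property of that library and an effect of the guides cannot be told apart, and the part of the composition in the differences below was not tested.

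**Figure D1:**
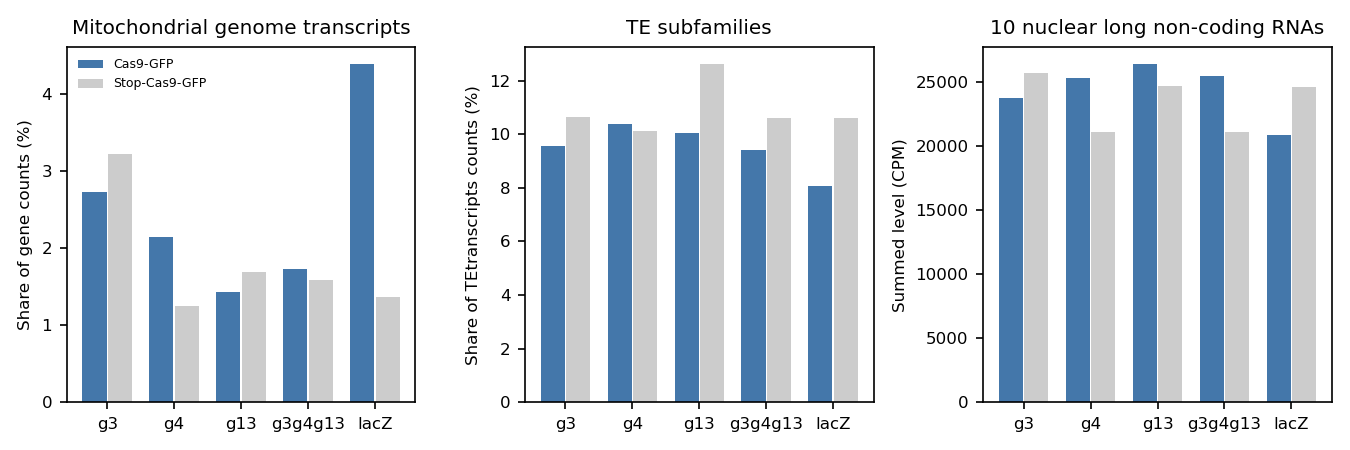
Share of gene counts from the mitochondrial genome (left), share of TEtranscripts counts from TE subfamilies (middle), both in percent, and summed CPM of 10 nuclear long non-coding RNAs (right), in each library of the Cas9-GFP (blue) and Stop-Cas9-GFP (grey) nuclei. Among the Cas9-GFP libraries the lacZ bar is the highest on the left, at 4.39%, and the lowest in the middle, at 8.09%, and on the right, at 20849 CPM.

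Trim28 itself, the targeted gene, measured 110 CPM in g3, 97.7 CPM in g4, 102 CPM in g13 and 107 CPM in g3g4g13, a mean of 104 ± 5.42 CPM (SD, n = 4), and 149 CPM in lacZ. All 4 Trim28-KO libraries lay below the control, and they lay close together although their cuts are in 3 different exons. The log2 fold change was -0.52 ± 0.16 (SE), with an adjusted p of 0.390 by edgeR's quasi-likelihood test, so Trim28 was not called. Of all tested genes, 12.1% had a log2 fold change as low as this or lower, and 1.29% had an unadjusted p as low as that of Trim28 or lower. Counts over the whole gene do not show whether a transcript carries an edit. For this experiment the paper reports efficient editing with each guide, mostly frameshifts, in DNA of sorted nuclei. By immunostaining it reports that most RFP-positive neurons had lost the Trim28 protein.

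Trim28 showed no such offset in the Stop-Cas9-GFP nuclei, at 107, 132, 108 and 92.3 CPM with the same guides and 110 CPM with lacZ. Their log2 fold change was -0.00 ± 0.24. The difference between the 2 experiments, tested as an interaction, was -0.50 ± 0.29 with an adjusted p of 1.00 by edgeR. In NPCs the log2 fold change of Trim28 was -1.82, and it was 1 of 3 genes called lower there (0.0188% of 15923), with an adjusted p of 0.0322 by the same test.

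The genes that work with Trim28 were measured in full. All 28 listed partners and heterochromatin factors passed the filter on low counts, none was called, and their median log2 fold change of 0.05 equalled that of all 18327 tested genes, also 0.05. In all 4 libraries 9 lay above lacZ and 6 below, against 23.6% and 21.8% of all genes. Trim66, a relative of Trim28 that also binds heterochromatin protein 1, measured 40.9, 44.1, 45.9 and 34.7 CPM against 21.3 CPM in lacZ (log2 fold change 0.96 ± 0.25, adjusted p 0.309 by edgeR). Its Stop-Cas9-GFP levels were 41.4, 43.7, 47.0 and 53.5 CPM against 30.1 CPM. Trim24, another member of the same family, measured 46.4 to 64.8 CPM against 40.5 CPM. Dnmt3b, a de novo DNA methyltransferase, held no count in lacZ and measured 0.0791 to 1.72 CPM in the others. Of the numbered Zfp genes, which include many KRAB-ZFPs, 335 passed the filter and none was called, with a median of 0.10. Of these 107 lay above lacZ in all 4 libraries and 62 below, and 31 were higher and 2 lower at an unadjusted p under 0.05, against 5.49% higher and 2.82% lower of all genes.

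Across all genes the comparison of Trim28-KO with lacZ gave no call. A gene was called where the adjusted p was under 0.05 and the size of the log2 fold change exceeded 0.5. By this rule edgeR called 0 of 18327 genes (0%), and the lowest adjusted p was 0.155. The spread came from the 4 Trim28-KO libraries alone, and the lone control was assumed to vary like them. At an unadjusted p under 0.05 there were 1523 genes (8.31%), 1007 higher (5.49%) and 516 lower (2.82%) in the Trim28-KO libraries. DESeq2 called 23 genes, 12 higher (0.0655%) and 11 lower (0.06%). The calls differed when the libraries with Y-linked reads were left out, an alternative added after the data were seen, which leaves g4 and g3g4g13 against lacZ and a spread from those 2 libraries alone. That fit called 34 genes, 19 higher and 15 lower. Of the lower ones 12 were mitochondrial transcripts and the others were Acot7, Ubb and Cox7a2l. The higher ones included Pter, Tcfl5, Gm6297 and Gm13016, described below, and Slc17a7, Nr4a2 and Arc, whose levels differed widely among the 4 Trim28-KO libraries. For a single gene, an exact permutation of 4 libraries against 1 cannot give a p below 0.2.

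The 5 genes with the smallest p above lacZ were all at 0 counts in that library, in which the floor of 3 counts corresponds to 0.307 CPM. Gm6297, a long intergenic RNA gene, measured 4.42, 7.02, 4.76 and 4.19 CPM, at least 16.6-fold higher than the floor of the control, and it was called without g3 and g13 (adjusted p 0.00306 by edgeR). Gm45104 measured 3.97 to 4.33 CPM, at least 13.5-fold higher. Gm28988, an antisense RNA gene, measured 3.23 to 5.50 CPM, at least 13.6-fold higher. Bcl7c, a subunit of the SWI/SNF chromatin remodelling complexes, measured 2.85 to 4.29 CPM, at least 11.8-fold higher. The remaining one, Gm13016, is described with the Stop-Cas9-GFP values below. In each case all 4 libraries lay above lacZ. A level of 0 in lacZ beside 20 or more counts in each of the other libraries occurred for 12 genes, while g3g4g13 had 2 such genes of its own and g3, g4 and g13 had 0. Among the Stop-Cas9-GFP libraries g3, in which 18820 genes had a count, had 8 such genes, and the others, lacZ included, had 0. The Stop-Cas9-GFP lacZ library measured 6.84 CPM of Gm6297 and 6.25 CPM of Gm28988, within the range of its 4 Trim28-KO libraries, at 4.90 to 9.49 and 4.54 to 7.90 CPM. Bcl7c also lay on both sides of that control, at 0.442 to 4.00 CPM against 1.53 CPM. Gm45104 lay above it in all 4, at 3.95 to 6.90 CPM against 2.36 CPM.

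Of the 5 genes with the smallest p below lacZ, 4 were transcripts of the mitochondrial genome. mt-Nd6, a subunit of respiratory complex I, measured 563, 489, 353 and 368 CPM against 1084 CPM, a log2 fold change of -1.29 ± 0.20. With the gene counts of TEtranscripts in place of those of featureCounts its log2 fold change was -0.11, with an adjusted p of 0.946 by edgeR, whereas that of mt-Nd5 was -1.31 with both. mt-Nd5, of the same complex, measured 3604, 2984, 1973 and 2197 CPM against 6686 CPM. mt-Tq, a transfer RNA, measured 43.8 to 78.0 CPM against 161 CPM, and mt-Rnr1, the small ribosomal RNA, 102 to 188 CPM against 318 CPM. Of the 21 mitochondrial transcripts tested, 19 lay below lacZ in all 4 libraries and 0 above, with a median log2 fold change of -1.19, and none was called. Without g3, or without g13, mt-Nd6, mt-Nd5 and mt-Rnr1 were called, with adjusted p of 0.0108 to 0.0410 by edgeR. The Stop-Cas9-GFP levels of mt-Nd6 were 1047, 280, 411 and 411 CPM against 283 CPM, 3 of 4 above the control, with a log2 fold change of 0.93 ± 0.46.

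The nuclear gene in that set was Acot7, an acyl-CoA thioesterase abundant in neurons. It measured 18.5, 16.3, 20.6 and 17.3 CPM, a mean of 18.2 ± 1.82 CPM (SD, n = 4), against 47.2 CPM in lacZ. The 4 values were close together, and the log2 fold change was -1.38 ± 0.24, with an adjusted p of 0.155 by edgeR, or 0.0132 without g3 and g13. Acot7 in the Stop-Cas9-GFP nuclei measured 9.15, 20.5, 14.1 and 25.3 CPM against 21.6 CPM, and its Trim28-KO libraries lay on both sides of the control.

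The genes that DESeq2 called and edgeR did not, chosen after their values were seen, were of several kinds. Among those lower in the Trim28-KO libraries, besides 5 mitochondrial transcripts and Acot7, were Ubb, a polyubiquitin gene, at 87.7 to 116 CPM against 183 CPM, and Stip1, an Hsp70 and Hsp90 cochaperone, at 62.3 to 76.5 CPM against 122 CPM. Tuba1a, a neuronal alpha-tubulin, measured 81.4 to 85.5 CPM against 136 CPM. Among those higher, Nsd2, a histone H3K36 methyltransferase, measured 201, 198, 201 and 189 CPM against 126 CPM, and its DESeq2 log2 fold change was 0.64 ± 0.15. Nsd2 in the Stop-Cas9-GFP nuclei was at 223 to 260 CPM against 234 CPM, on both sides of the control. Carf, a calcium-responsive transcription factor, measured 60.2 to 72.3 CPM against 34.7 CPM, and Cgnl1, a junction protein, 14.3 to 19.7 CPM against 5.22 CPM. Fancd2 and Pter, described below, were also among the genes called higher.

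Some genes differed from lacZ in the same direction in both sets of nuclei, 67 of them at an unadjusted p under 0.05 in each. Of these Fancd2, Pter, Gm13016 and Id4 are described here. They were chosen after their values were seen, except that Gm13016 was also among the 5 smallest p. DESeq2 called Fancd2 and Pter in the Cas9-GFP nuclei. The 67 also included Slc17a6 and Tbr1, which are on the lists of markers of cells outside the striatum given below. Slc17a6 and Tbr1 were higher than lacZ in both sets, and the part of cell composition in the 67 was not tested. Fancd2 (ENSMUSG00000034023.16, chr6:113531682-113597017), a central protein of the Fanconi anaemia pathway of DNA crosslink repair, measured 47.6 CPM in g3, 25.3 CPM in g4, 29.3 CPM in g13 and 35.1 CPM in g3g4g13, against 11.2 CPM in lacZ. The Trim28-KO libraries did not overlap the control, and the log2 fold change was 1.62 ± 0.36, with an adjusted p of 0.241 by edgeR. In the Stop-Cas9-GFP nuclei Fancd2 measured 47.7, 48.3, 47.2 and 60.5 CPM against 13.7 CPM, with a log2 fold change of 1.90 ± 0.31 and an adjusted p of 0.143.

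Pter (chr2:12924041-13003455), a phosphotriesterase-related enzyme gene, measured 11.2, 17.3, 4.19 and 3.56 CPM and 0.205 CPM, or 2 counts, in lacZ. Its libraries varied among themselves more than those of Fancd2, and the log2 fold change was 5.39 ± 1.19, with an adjusted p of 0.241 by edgeR, or 0.000120 without g3 and g13. With Stop-Cas9-GFP it measured 5.24, 9.19, 4.09 and 3.45 CPM against 0.472 CPM. In both sets of nuclei the g4 library was the highest and g3g4g13 the lowest of the 4.

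Gm13016, a long intergenic RNA gene on chromosome 4, measured 3.97, 2.96, 3.72 and 7.20 CPM and 0 counts in lacZ, at least 14.5-fold higher than the floor, and it was called without g3 and g13 (adjusted p 0.00937 by edgeR). With Stop-Cas9-GFP its level was 5.72, 6.22, 5.85 and 3.18 CPM against 0.707 CPM. Id4, a helix-loop-helix inhibitor of transcription factors, was lower, at 69.1, 59.7, 64.1 and 53.7 CPM against 101.6 CPM, and in the Stop-Cas9-GFP nuclei at 41.2 to 78.5 CPM against 136 CPM.

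A fit of both sets of nuclei with the experiment as a term, added after the data were seen, called 3 genes at 8 Trim28-KO against 2 lacZ libraries. Fancd2 rose with a log2 fold change of 1.75 ± 0.23 and an adjusted p of 0.000514 by edgeR. Pter rose with a log2 fold change of 4.36 ± 0.76 and an adjusted p of 0.0252. Id4 fell by 1.05 on the log2 scale, with an adjusted p of 0.0153. Of the 17117 genes tested in both sets, 54.7% had the same direction in both. The Stop-Cas9-GFP fit alone called 0 of 18290 genes, with 446 (2.44%) at an unadjusted p under 0.05. Of the 61 genes that were higher in Cas9-GFP and had an unadjusted p under 0.05 in both, 59 had the same direction, and of 11 lower ones 8 did. A test of the difference in response between the 2 sets of nuclei called 0 of 19825 genes, with 802 at an unadjusted p under 0.05 and 0 calls by DESeq2 as well.

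**Figure D2:**
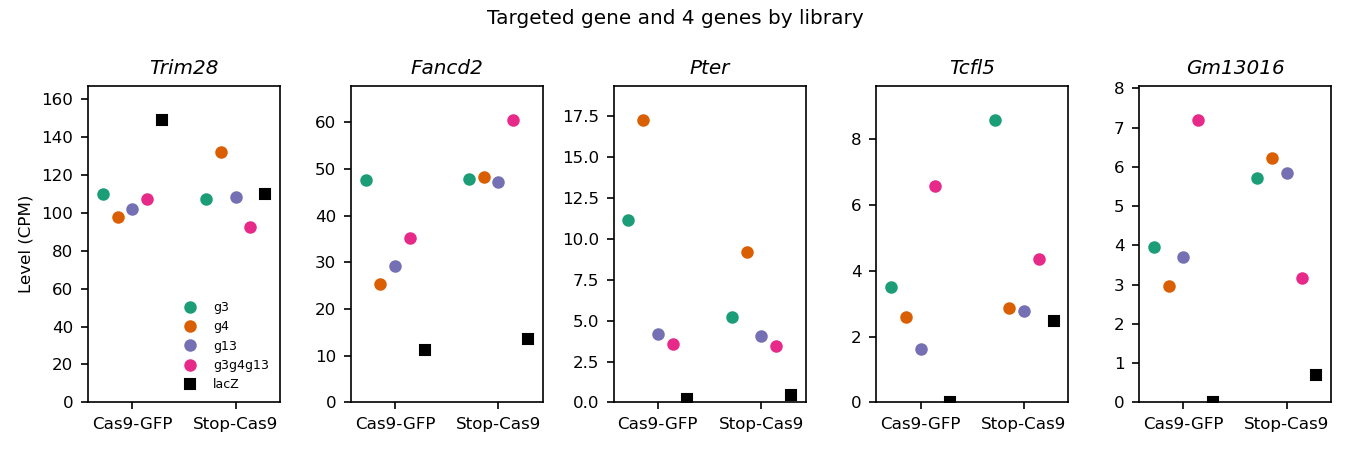
Level in CPM of the targeted gene Trim28 and of Fancd2, Pter, Tcfl5 and Gm13016 in each library of the Cas9-GFP and Stop-Cas9-GFP nuclei, circles for Trim28 guides and squares for lacZ, with 1 animal per point. Trim28 lies below lacZ in all 4 Cas9-GFP libraries, at 97.7 to 110 CPM against 149 CPM, but on both sides of it in the Stop-Cas9-GFP libraries, whereas Fancd2 lies above lacZ in both.

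The Trim28-flox animals of the series, in which Cre from an AAV vector deletes Trim28 in the adult forebrain, offered a further look at these genes, with a caveat on their labels. Their Trim28 level was 135 to 152 CPM in the 4 libraries labelled KO and 26.7 to 32.8 CPM in the 4 labelled control, which goes against the labels. Fancd2 measured 18.9 to 27.6 CPM in the libraries labelled KO and 52.5 to 65.5 CPM in those labelled control, and it was thus high where Trim28 was low. Tcfl5 and Gm13016 lay the same way round, at 1.95 to 7.35 and 0.115 to 0.748 CPM in the libraries labelled KO and at 11.3 to 16.7 and 1.56 to 3.13 CPM in those labelled control. Pter overlapped between the 2 groups.

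The genes that respond to Trim28 targeting in NPCs were largely silent in the nuclei. The same edgeR fit called 27 genes higher in NPCs (0.17% of 15923 tested), and 10 of these passed the filter in the nuclei, none of them called. Vmn1r211, Vmn1r213 and Vmn1r214, vomeronasal receptor genes, and Gm43891 had 0 counts in all 5 libraries, and Vmn1r210 had 1 count in g13. The 17 genes that did not pass the filter held at most 9 counts in any library. Fbxw19, an F-box gene, had 27, 0, 2 and 14 counts with the Trim28 guides and 0 with lacZ, so g4 was level with the control.

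Tcfl5, a helix-loop-helix transcription factor best known from the testis, was the NPC gene with the smallest p in the nuclei. It measured 3.52 CPM in g3, 2.59 CPM in g4, 1.62 CPM in g13, 6.57 CPM in g3g4g13 and 0 counts in lacZ, at least 11.6-fold higher than the floor, with an adjusted p of 0.243 by edgeR, or 0.0244 without g3 and g13. The Stop-Cas9-GFP control library was not at 0, and Tcfl5 measured 2.76 to 8.58 CPM against 2.48 CPM there, with an unadjusted p of 0.247 by edgeR. Gm26691, an antisense RNA gene, measured 4.78, 6.74, 5.34 and 6.88 CPM against 1.84 CPM, but 6.27 to 10.1 CPM against 11.7 CPM in the Stop-Cas9-GFP nuclei. Zfp992 measured 1.57 to 2.70 CPM against 0.307 CPM, which is 3 counts. The 7 others, Mtus1, Pvalb and Pcdhgb4 among them, had unadjusted p of 0.103 to 0.771 by edgeR.

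TE subfamilies were compared next, since they are the elements that Trim28 is known to repress. With library sizes from the TE counts, edgeR called 0 of 970 subfamilies (0%), and the lowest adjusted p was 0.0541. At an unadjusted p under 0.05 there were 96 subfamilies (9.9%), 64 higher (6.6%) and 32 lower (3.3%). DESeq2 called 2, RLTR22_Mur higher and RLTR31D_MM lower. The median log2 fold change of all subfamilies was 0.04.

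This outcome depended on what set the library size. With library sizes from the gene counts, the median over subfamilies moved by 0.32 to 0.36, and 34 of 967 subfamilies were called, all of them higher (3.52%). Then 50.8% of the subfamilies lay above lacZ in all 4 libraries and 7.24% below, against 26% and 23.8% with TE library sizes. The share of TE counts in lacZ was the lowest of the 5 libraries, as given above, and the 2 scalings differ by that share.

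MMERVK10C-int, the internal part of an ERVK provirus and the subfamily on which the study centres, had 2534, 2807, 2880 and 2986 counts in the Trim28-KO libraries and 1447 in lacZ. Scaled to a common total of TE counts, here called TE CPM, these were 2010, 2043, 2259 and 2101 against 1549. The log2 fold change was 0.44 ± 0.13, with an adjusted p of 0.255 by edgeR, and relative to gene counts it was 0.76 with an adjusted p of 0.0164. All 4 libraries lay above lacZ under both scalings. MMERVK10C-int measured 2182 to 2506 TE CPM in the Stop-Cas9-GFP nuclei against 1754, a log2 fold change of 0.44 ± 0.15.

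In NPCs the log2 fold change of MMERVK10C-int was 3.88 ± 0.28, with an adjusted p of 3.0e-05 by edgeR. The response in NPCs exceeded that in the nuclei by 3.42 ± 0.30 on the log2 scale, an interaction with an adjusted p of 7.9e-06. The same test found 6 of 933 subfamilies whose response differed between NPCs and nuclei. RLTR10C and RLTR34B_MM, 2 further ERVK subfamilies, responded more in NPCs, by 2.80 and 2.08. RLTR22_Mur, RLTR13D1 and Ricksha had the larger fold change in the nuclei, with differences of -1.63, -3.30 and -3.51.

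The fit of NPCs called 8 subfamilies higher, all of them ERVK (1% of 800 tested). In the nuclei RLTR34B_MM measured 98.3, 99.0, 108 and 89.4 TE CPM against 65.3, with a log2 fold change of 0.60 ± 0.34. RLTR10C measured 202, 219, 166 and 246 against 259, and all its Trim28-KO libraries lay below lacZ. With gene library sizes that difference vanished, with a log2 fold change of -0.00.

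The IAP elements, the most active ERVs of the mouse, varied between guides. IAP-d-int measured 469 TE CPM in g3, 215 in g4, 194 in g13 and 113 in g3g4g13, against 110 in lacZ. The g3 library alone was far above the others, g3g4g13 was level with the control although it also received g3, and the log2 fold change was 1.17 ± 0.55. It was 0.66 without g3, and it was called without g3g4g13, at 1.41 (adjusted p 0.0210 by edgeR), and with gene library sizes, at 1.48 (adjusted p 0.0177). With Stop-Cas9-GFP, IAP-d-int stood at 145 to 153 TE CPM against 149. IAP1-MM_I-int had 29, 44, 40 and 54 counts against 18, IAPLTR4_I had 4, 3, 16 and 3 against 11, and IAP1-MM_LTR had 15, 5, 11 and 19 against 0. The last 3 rest on few counts, and their log2 fold changes had standard errors of 0.62 to 2.89. RMER19B2 lay on both sides of lacZ, with 220 to 332 TE CPM against 257.

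**Figure D3:**
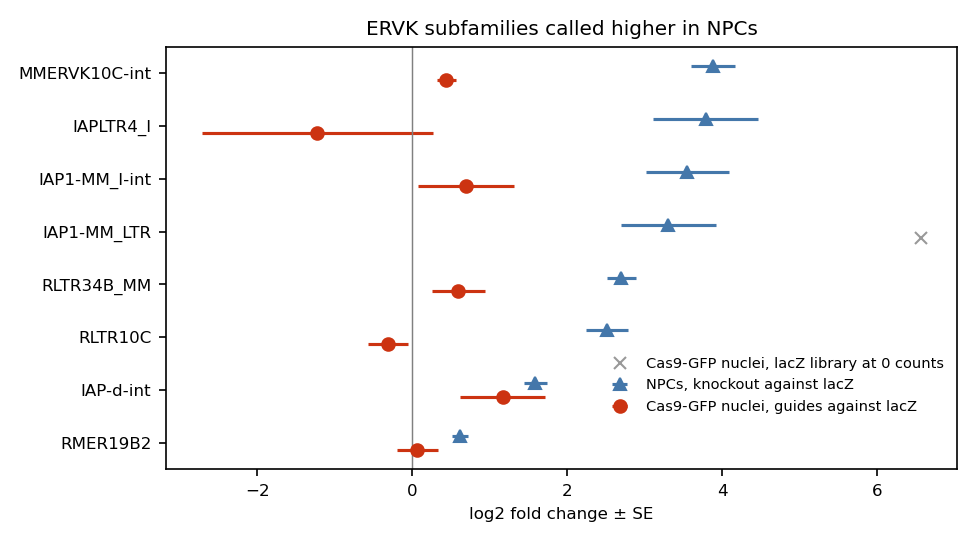
Log2 fold change (± SE) of the 8 ERVK subfamilies called higher in NPCs, in NPCs (triangles, 6 Trim28-KO against 2 lacZ) and in Cas9-GFP nuclei (circles, 4 against 1, TE library sizes), with a cross where the lacZ library had 0 counts, so that the fitted value is no bound. MMERVK10C-int lies at 3.88 in NPCs and 0.44 in the nuclei.

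The 5 subfamilies with the smallest p in each direction in the nuclei were not among the 8 of the NPCs, although the p of MMERVK10C-int was close behind them, at an unadjusted 0.00310 by edgeR, and below that of ORR1B2-int, 0.00345. RLTR22_Mur, an ERVK long terminal repeat, had 194, 191, 175 and 184 counts against 34, or 154, 139, 137 and 130 TE CPM against 36.4. The 4 libraries lay close together and far above lacZ, with a log2 fold change of 1.94 ± 0.35 and an adjusted p of 0.0541. RLTR22_Mur in the Stop-Cas9-GFP nuclei measured 139 to 152 against 141 in their lacZ library, on both sides of it. The cause of the difference in the Cas9-GFP nuclei was not tested. RLTR23, of the ERV1 family, measured 138 to 177 against 71.7, and 141 to 184 against 225 in the Stop-Cas9-GFP nuclei. Ricksha, a DNA transposon of the MuDR family, RLTR13D1 and HAL1_SS had 6, 6 and 1 counts in lacZ and 55 to 96, 50 to 76 and 26 to 49 counts in the Trim28-KO libraries.

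On the other side, RLTR31D_MM, also ERVK, measured 1034, 1541, 1286 and 1243 TE CPM against 2082 in lacZ, a log2 fold change of -0.71 ± 0.16. All 4 libraries lay below lacZ, also with gene library sizes, where the log2 fold change was -0.38. Its Stop-Cas9-GFP level ran from 829 to 1922 against 1037. HERVL40-int had 19, 19, 24 and 43 counts against 75, and ORR1B2-int, a MaLR element, had 66, 74, 66 and 63 against 109.

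**Figure D4:**
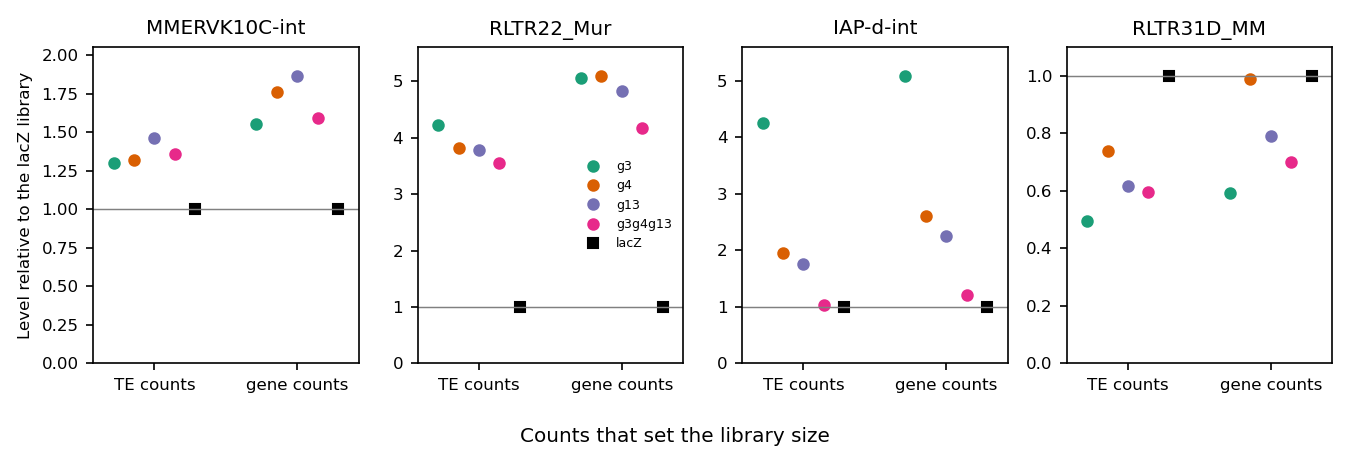
Level of 4 TE subfamilies in each Cas9-GFP library relative to lacZ, which is set to 1 (grey line), with library sizes taken from TE counts (left in each panel) or gene counts (right). MMERVK10C-int and RLTR22_Mur lie above 1 and RLTR31D_MM below 1 in all 4 Trim28-KO libraries under both scalings, while IAP-d-int is high mainly in g3.

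By family, the medians lay near 0 with TE library sizes. The median log2 fold change was 0.08 over 268 ERVK subfamilies, 0.21 over 104 ERV1, -0.00 over 93 ERVL and 0.02 over 94 ERVL-MaLR subfamilies, and 0.01 over 130 L1 subfamilies, a family of LINE retrotransposons. The 16 Alu subfamilies, short elements of the SINE class, had a median of -0.08. With gene library sizes these medians became 0.40, 0.53, 0.31, 0.34, 0.32 and 0.24, and the Alu median changed sign. Then 13 of the 268 ERVK, 3 of the 104 ERV1, 4 of the 93 ERVL, 3 of the 94 ERVL-MaLR and 4 of the 130 L1 subfamilies were called higher. Of the 16 Alu subfamilies 0 were called, and over all subfamilies the share was 34 of 967 (3.52%). ERVK elements took 7.25%, 7.57%, 7.48% and 7.44% of all TE counts in g3, g4, g13 and g3g4g13 and 6.94% in lacZ.

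Other groups of genes known to respond to Trim28 loss, ERVs, DNA breaks or injected vectors were examined by list, and no member of any list was called in the fit of all 5 libraries. Fitted values of genes at 0 counts in lacZ are no bounds, but with these genes set to their bound against the floor every list's median stayed the same. The counts above and below lacZ in this and the following lists stand beside 23.6% above and 21.8% below among all tested genes. Of 48 imprinted genes 39 passed the filter, 7 above and 9 below lacZ in all 4 libraries, with a median of 0.00. Mkrn3, a paternally expressed gene of the Prader-Willi region, measured 0.762 to 2.97 CPM against 0 counts, at least 5.10-fold higher than the floor, and Slc38a4 measured 0.739 to 1.14 CPM against 2.25 CPM. Of the 38 clustered protocadherin genes 37 passed, 9 above and 5 below, with a median of 0.13.

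Of 42 interferon-stimulated genes 31 passed the filter, 7 above and 11 below lacZ, with a median of 0.13. Their summed level was 302, 284, 313 and 288 CPM against 295 CPM in lacZ, and the 2 groups overlapped. H2-K1, a class I histocompatibility antigen, had the smallest p of the list, with 4.15, 1.20, 2.19 and 2.85 CPM against 0 counts, and 6 members, Cxcl10 and Oas1a among them, had no count in any library. Of the 11 nucleic acid sensors 1 lay above and 1 below lacZ in all 4 libraries, and Eif2ak2, which encodes the double-stranded RNA sensor PKR, measured 7.39, 3.79, 10.6 and 2.29 CPM against 1.95 CPM.

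Of 24 p53 and DNA damage targets 22 passed, 5 above and 6 below, with a median of -0.09. Gadd45a, a stress-induced growth arrest gene, measured 3.25, 2.68, 1.52 and 3.56 CPM against 0.102 CPM, which is 1 count, and in the Stop-Cas9-GFP nuclei its log2 fold change was 0.12. Activity-induced genes had a median of -0.09 over 25 members. Arc and Fos, immediate early genes of active neurons, were high in g3g4g13 alone, with Arc at 15.0, 23.7, 18.9 and 97.1 CPM against 15.4 CPM and Fos at 0.992, 1.39, 1.43 and 9.41 CPM against 1.23 CPM. Nr4a2, a nuclear receptor, measured 30.8 CPM in g3 and 54.6 CPM in g4, but 3.05 CPM in g13 and 5.93 CPM in g3g4g13, against 2.97 CPM.

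Genes of glial activation and inflammation had a median of 0.08 over the 12 of 26 that passed the filter, 2 above and 3 below lacZ. C4b, a complement component, measured 15.5, 5.91, 16.9 and 12.5 CPM against 2.87 CPM, with an adjusted p of 0.314 by edgeR, and in the Stop-Cas9-GFP nuclei its log2 fold change was -0.06. Gfap, the astrocyte filament protein, measured 4.60, 1.85, 6.29 and 2.06 CPM against 1.02 CPM. Among microglia markers, C1qa measured 2.22 to 3.52 CPM against 0.102 CPM and Aif1, which encodes Iba1, 2.10 to 8.38 CPM against 1.33 CPM. Of the 12 microglia markers 10 passed the filter, 4 above and 0 below lacZ in all 4 libraries, against 23.6% and 21.8% of all genes. Their median log2 fold change was 0.17, and that of Tyrobp was -0.77. Trem2 was at 0 throughout, and the summed level of the microglia markers was 98.3, 67.0, 78.7 and 78.4 CPM against 65.4 CPM. Their Stop-Cas9-GFP sums were 44.4 to 61.2 CPM against 58.8 CPM, on both sides of the control. The log2 fold changes there were -1.28 for C1qa, -0.25 for Aif1 and 0.83 for C1qb. In a bulk sample, more cells of a type and more RNA per cell cannot be told apart, and these nuclei had been sorted on a reporter under a neuronal promoter. The 9 astrocyte markers summed to 53.3 to 96.0 CPM against 79.1 CPM and the 9 oligodendrocyte markers to 199 to 278 CPM against 228 CPM, both overlapping the control.

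Markers of neuron types showed how the sorted populations compared. The 12 striatal projection neuron markers summed to 10458, 10301, 8864 and 10957 CPM against 10455 CPM, with a median log2 fold change of -0.13. All 5 markers of D2 neurons, those that express the dopamine receptor Drd2, lay below lacZ in the 4 libraries, against 21.8% of all genes, with a median of -0.48. Penk, which encodes the enkephalin precursor, measured 1989, 1580, 1387 and 2327 CPM against 2677 CPM (log2 fold change -0.56 ± 0.20, adjusted p 0.490 by edgeR), and Drd2 measured 510, 421, 359 and 512 CPM against 569 CPM. Of the 5 D1 markers 1 lay below and 0 above, with a median of -0.08. The summed D2 markers of the Stop-Cas9-GFP nuclei were at 2184 to 2414 CPM against 2695 CPM, of which Penk alone was 1664 to 2010 CPM against 2081 CPM. Log2 fold changes there were -0.24 for Penk and -0.13 for Drd2, but 0.07 for Sp9 and 0.15 for Gpr6. The striatal projection neuron markers also summed to less than in lacZ there, at 9199 to 12511 CPM against 12520 CPM.

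Markers of cells outside the striatum differed between animals. Slc17a7, the vesicular glutamate transporter of cortical neurons, measured 68.5 CPM in g3, 126 CPM in g4, 6.38 CPM in g13 and 31.4 CPM in g3g4g13, against 14.5 CPM in lacZ. The g3 and g4 libraries, which were also the high ones for Nr4a2, thus held the most, and g13 held less than the control. In the Stop-Cas9-GFP nuclei Slc17a7 measured 88.1, 40.4, 35.8 and 14.8 CPM against 7.31 CPM, so all 4 lay above their lacZ library. The summed level of the 12 cortical excitatory markers was 453, 589, 455 and 493 CPM against 482 CPM, and their median log2 fold change was 0.68. Their Stop-Cas9-GFP sums were 430 to 517 CPM against 446 CPM, on both sides of the control. Slc17a6, the transporter of thalamic and other subcortical neurons, was at 23.2 CPM in g13 and at 2.53 to 4.06 CPM in the other Trim28-KO libraries, against 0.717 CPM. With Stop-Cas9-GFP it measured 10.9, 3.85, 3.87 and 20.2 CPM against 0.354 CPM. In both sets of nuclei all 4 libraries thus lay above lacZ for Slc17a6. Of the 8 septal and thalamic markers 2 lay above lacZ in all 4 libraries, 1 below and 5 overlapped, and Nts, the neurotensin gene, had a log2 fold change of -1.35. Their sum was 27.5, 27.5, 64.8 and 21.6 CPM against 28.1 CPM, above the control in g13 alone. The Stop-Cas9-GFP sums of these markers were 31.7, 23.2, 28.5 and 61.4 CPM against 21.4 CPM. Of 10 interneuron markers 1 lay above, 3 below and 6 overlapped, with a median of -0.11. Sst and Npy, neuropeptides of striatal interneurons, lay below lacZ in all 4, at 29.1 to 54.5 against 70.8 CPM and at 31.1 to 47.3 against 63.4 CPM, but with log2 fold changes of 0.53 and 0.31 in the Stop-Cas9-GFP nuclei, and Cck had a log2 fold change of 1.25. Snap25, a synaptic protein made by most neurons, measured 512 to 568 CPM against 745 CPM, whereas the 8 pan-neuronal markers together summed to 3156 to 3371 CPM against 3298 CPM. The part of these differences in the results above was not tested. The remaining marker lists, of interneurons, pan-GABAergic neurons, oligodendrocyte progenitors, endothelial, meningeal, choroid plexus, blood and lymphoid cells, held no called gene either. Lymphocyte markers Cd3d, Cd3g, Cd8a and Cd8b1 and the endothelial marker Cldn5 were at 0 counts in all 5 libraries.

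**Figure D5:**
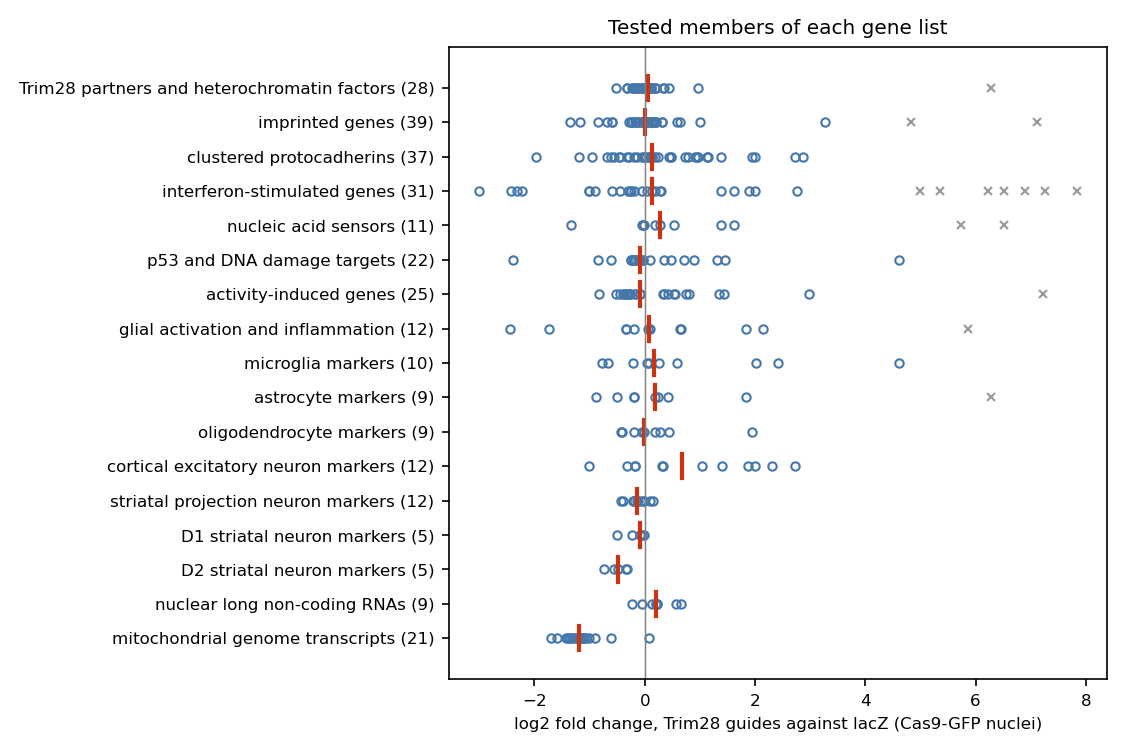
Log2 fold change of each tested member of 17 gene lists (member numbers in brackets) in Cas9-GFP nuclei, Trim28 guides against lacZ, with red bars at the list medians and grey crosses for genes at 0 counts in lacZ, whose fitted values are no bounds. Mitochondrial transcripts, with a median of -1.19, and D2 markers, with -0.48, lie to the left, and most other medians lie near 0.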

How the data were processed

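Nuclei RNA-seq libraries (TruSeq Stranded mRNA, poly-A selection) were paired-end. The authors aligned reads with STAR 2.6.0 to GRCm38.p6 (versions from the submitters' processing notes and the methods) and deposited raw counts per gene, made with featureCounts (Subread 1.6.3) from uniquely mapped reads, and counts per TE subfamily and gene from TEtranscripts in multi mode, which divides multi-mapping reads between elements. No normalized values were used.

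Counts were tested in R 4.3.3 with edgeR 4.0.16 (limma 3.58.1; filterByExpr, TMM, quasi-likelihood test, Benjamini-Hochberg adjustment). A row was called at an adjusted p under 0.05 and an absolute log2 fold change above 0.5. The standard error was the size of the log2 fold change divided by the square root of the F statistic. Genes on chromosomes X and Y were removed (4184 rows). TE subfamilies were scaled by TE counts, or by gene counts as an alternative. DESeq2 1.42.0 was an alternative. Of 55298 gene rows 54495 matched GENCODE vM21 by identifier, which gave chromosomes. The scripts were tested on simulated counts with these library sizes and groups and the average spread of the fit. The changed genes were drawn from those with higher mean counts. Of 50 genes raised by a log2 fold change of 1 edgeR called 2, and of 50 raised by 2 it called 28. For lowered genes these numbers were 2 and 26. False calls numbered 1 with edgeR and 15 with DESeq2. With a smaller simulated spread (dispersion 0.0215 in place of 0.0860), edgeR called 29 and 50 of the raised genes and 31 and 50 of the lowered genes. False calls then numbered 9 with edgeR and 11 with DESeq2. A count of 0 called therefore does not show that no gene changed. Intervals and floors (3 counts) cover counting error only. Of the sample columns, 6 matched no sample and were not used.

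Libraries, gene lists and the rule for named genes were chosen with earlier results of these data known: Trim28, the 5 smallest p in each direction where nothing was called, genes and subfamilies called higher in NPCs, and up to 4 members per list by size of change. Members named outside this rule were chosen after their values were seen.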

Additional observations from a re-analysis of the deposited data

Results flagged for a closer look

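The 4 Trim28-KO values were examined in 63 sets, those of named genes, named TE subfamilies, list sums and library measures, and in 6 of them 1 library's gap to its nearest neighbour took more of the whole range than Dixon's 95% critical value. Chance gives about 1 in 20 such sets. The gap was 0.901 of the range for RLTR13D1, where g3 was high, at 60.3 against 37.1 to 39.4 TE CPM, and 0.898 for IAPLTR4_I, where g13 was high on 16 counts. It was 0.874 for the summed activity-induced genes, where g3g4g13 stood at 1809 CPM and the others at 1100 to 1189 CPM. For glial activation it was 0.844, with g4 low at 89.9 CPM against 152 to 163 CPM. For septal and thalamic neuron markers it was 0.862, with g13 high at 64.8 CPM against 21.6 to 27.5 CPM. For pan-neuronal markers it was 0.926, with g3g4g13 low at 3156 CPM against 3355 to 3371 CPM, a narrow range.

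The response to the guides differed between NPCs and Cas9-GFP nuclei, by the interaction test, for 6 TE subfamilies. The difference, NPCs minus nuclei on the log2 scale, was 3.42 for MMERVK10C-int, 2.80 for RLTR10C, 2.08 for RLTR34B_MM, -3.51 for Ricksha, -3.30 for RLTR13D1 and -1.63 for RLTR22_Mur. The last 3 were at 6, 6 and 34 counts in the lacZ library of the nuclei.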

How the results depend on the processing

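With 1 control library, every comparison rests on it, and leaving it out leaves no comparison. No paired analysis was possible because the labels give no replicate numbers shared between groups and each guide occurs once in these nuclei. The count of genes called, 0, became 23 with DESeq2, 135 without a filter, 4 with the gene counts of TEtranscripts, 3 with the Stop-Cas9-GFP libraries as further groups, and 0 to 11 on leaving out 1 Trim28-KO library (9 without g3, 11 without g13). Of the alternatives added after the data were seen, 34 were called without the libraries with Y-linked reads and 3 with both experiments in 1 fit. The count of TE subfamilies called, 0, became 2 with DESeq2, 1 with library totals, 1 with the Stop-Cas9-GFP libraries, 34 with gene library sizes, and 0 to 16 on leaving out 1 library (16 without g3g4g13). MMERVK10C-int was called only with gene library sizes, at 0.76, and ranged from 0.40 to 0.46 on leaving out 1 library. Without g3g4g13 its adjusted p was under the threshold, but its log2 fold change of 0.44 was under the 0.5 needed for a call. With both experiments in 1 fit it was also 0.44, with an unadjusted p of 0.000147 and an adjusted p of 0.149 by edgeR. Trim28 ranged from -0.55 to -0.28 and was never called. Subfamilies with a different response in NPCs numbered 15 with DESeq2, and genes differing between both sets of nuclei 21 without a filter. The NPC difference of RLTR22_Mur missed the threshold with gene library sizes, at -1.64 (adjusted p 0.138 by edgeR). The log2 fold change of IAP1-MM_I-int turned to -0.34 with both experiments in 1 fit and that of RMER19B2 to -0.054 without g3, in a range of -0.054 to 0.15 on leaving out 1 library. The causes were not tested. In 53 other recomputations these counts and values kept their direction and side of the threshold.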
